A study of Mus musculus with 8 samples.

Results

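Hmga1, Hmga2, Arid3a, Arid3b and Arid3c, which encode chromatin proteins of embryonic progenitors, were followed across genotype and RNA fraction in the developing mouse brain. The genes were taken by symbol. All 5 had a row among the 24420 of the total RNA table, and 3 of them (Hmga1, Hmga2 and Arid3b) were among the 5804 rows of the polysomal table. The tissue was embryonic mouse brain, called neural tube in the growth protocol, taken at stage E11.5. Embryos carried either wildtype alleles (WT) or the Lin28a-/-;b-/- genotype (double knockout, dKO). Total RNA and RNA bound to polysomes, strings of ribosomes on a messenger RNA, were sequenced from each genotype with 2 libraries per group, 8 in all. The sources used here give neither the strain, nor the design of the knockout alleles, nor how polysomes were collected. The labels also leave unsaid whether replicates are different embryos or litters. The p-values thus rest on how far these samples lie apart, and that distance may be technical.

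Lin28a and Lin28b bind the precursors of let-7 microRNAs and keep them from maturing. A let-7 microRNA pairs through its seed with sites in the 3′ UTR of a messenger RNA and lowers its translation and stability. HMGA proteins are small architectural proteins whose AT-hooks bind the minor groove of AT-rich DNA. Hmga2 is a classical let-7 target, is abundant in young neural stem cells and supports their self-renewal. ARID3 proteins bind AT-rich DNA through an ARID domain. Arid3a is also known as Bright, a factor of B cells, and Arid3b is needed in early embryos.

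The let-7 family is shown first, because its seed defines the sites searched for in the 5 genes. Of 11 mature names in the RefSeq table (GRCm38.p6), 10 share the seed GAGGUAG at bases 2 to 8. The exception, let-7j, has GAGGUAU. Members with different 3′ parts are printed with the seed in capitals.
mmu-let-7a-5p: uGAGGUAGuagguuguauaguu
mmu-let-7b-5p: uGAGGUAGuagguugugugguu
mmu-let-7d-5p: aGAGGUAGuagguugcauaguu
mmu-let-7g-5p: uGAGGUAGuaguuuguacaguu
mmu-miR-98-5p: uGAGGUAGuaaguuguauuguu

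The following kinds of match were searched on the transcript strand of the longest annotated 3′ UTR of each gene (GENCODE M21, GRCm38). An 8mer is CTACCTCA. A 7mer-m8 is CTACCTC without the last A, and a 7mer-A1 is TACCTCA without the first C, so that no site counts under more than 1 kind. Hmga2 held 7 matches in 3014 bases, of which 1 was an 8mer, 3 were 7mer-m8 and 3 were 7mer-A1. Arid3b held 5 in 2160 bases (1 7mer-m8 and 4 7mer-A1). Arid3a held 4 in 3082 bases (1 8mer, 1 7mer-m8 and 2 7mer-A1). Arid3c held 1 8mer in 397 bases, and Hmga1 held 1 7mer-m8 in 1183 bases. Of all 21022 annotated 3′ UTRs, 14.9% held at least 1 match. Among UTRs within 25% of its length, 0.104% held as many as Hmga2, 0.0856% as many as Arid3b and 0.214% as many as Arid3a. The same share was 5.12% for Arid3c and 12.8% for Hmga1. Hmga2 and Arid3b thus had more matches than nearly all UTRs of their size, and Hmga1 did not stand apart. For Arid3b this rests on the 7mer-A1 kind, which was added after values were seen. A match describes letters in an annotated transcript and is no measured binding site. Windows of 30 bases around chosen matches show the kinds found in each gene, with the match in capitals.
Hmga2, 8mer at base 58 of the UTR, chr10:120364222-120364251, minus strand: ggggcgccgacattcaatttCTACCTCAgc
Hmga2, 7mer-m8 at base 1295, chr10:120362985-120363014, minus strand: ataatccccactcctcaataCTACCTCtga
Hmga2, 7mer-A1 at base 1143, chr10:120363138-120363167, minus strand: gtgaaagaccgcagtaccactTACCTCAga
Arid3b, 7mer-A1 at base 67, chr9:57792441-57792470, minus strand: aggagattgatgcacagaattTACCTCAcc
Arid3b, 7mer-m8 at base 2148, chr9:57790359-57790388, minus strand: gtttatatttcaataaagctCTACCTCttc
Arid3a, 8mer at base 1974, chr10:79953890-79953919, plus strand: catgcaaggcaagtttctttCTACCTCAgg
Arid3c, 8mer at base 163, chr4:41724061-41724090, minus strand: ggatttatattacgttccatCTACCTCAcc
Hmga1, 7mer-m8 at base 801, chr17:27563272-27563301, plus strand: tcttctcctctgttcacaaaCTACCTCtgg

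**Figure D1:**
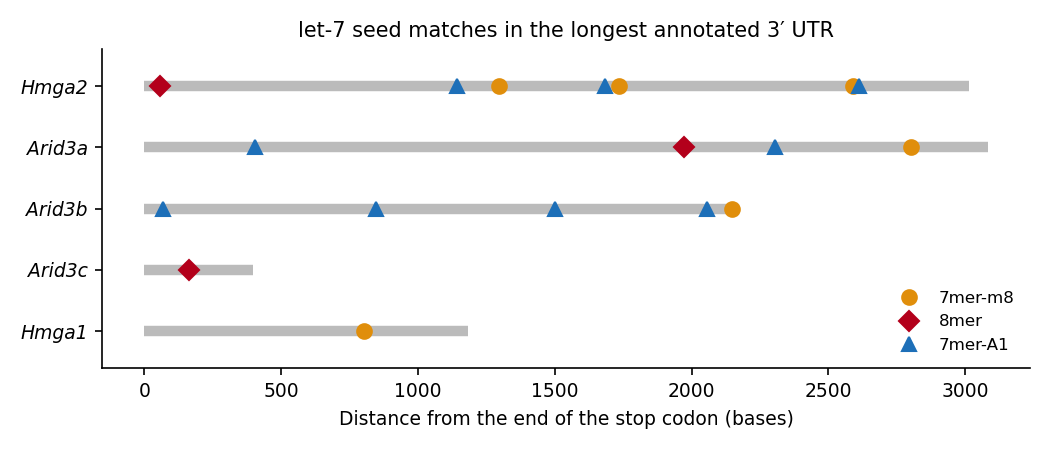
Position of let-7 seed matches (symbols by kind) along the longest annotated 3′ UTR of each gene (grey bar), in bases from the end of the stop codon. Matches are spread along the UTRs of Hmga2 (7), Arid3a (4) and Arid3b (5), while Arid3c and Hmga1 have 1 each.

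The sites also depend on the isoform. Transcripts Arid3c-201 and Arid3c-202, with UTRs of 94 bases, had no match, nor had Arid3b-202. Arid3b-201 had 3 matches, Arid3a-202 and Arid3a-203 had 3 each, and Hmga2-201 had 7. Hmga1 transcripts with UTRs of 543 bases or less had none. The Arid3b match at base 2148 lies near the end of its longest UTR. In the Arid3a coding sequence of the transcript with the longest UTR there were 2 further matches, in that of Arid3b there was 1, and the 5′ UTR of Hmga2 held 2. Counts per gene do not show which isoform or UTR was in use.

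Column totals of the total RNA table ranged from 15060560 to 15768767. Sums over the polysomal rows were 14874143 and 15414712 for the WT libraries, and 3740980 and 5164982 for the dKO libraries. Those rows are part of each library, so the sums are not its depth. The targeted genes were lower in the dKO libraries: in total RNA the log2 fold change was -3.35 ± 0.12 (SE) for Lin28a and -1.28 ± 0.07 for Lin28b. RNA counted under these names did not vanish: the mean dKO level was 9.82% of WT for Lin28a and 41.1% for Lin28b, which had 755 and 855 counts in dKO. The sources used here do not say which parts of the genes were deleted. Markers of neural tissue were abundant, with 10 neural progenitor genes summing to 4402 to 4448 CPM (counts scaled to a common library size, after TMM normalization) in WT and 4033 to 4076 CPM in dKO, and 10 neuronal genes to 4693 to 4701 and 4495 to 4503 CPM. Of all genes tested in total RNA, 16% were called lower and 14.7% higher. Of the 10 neural progenitor genes 4 fell and 2 rose, and of the 10 neuronal genes 4 fell and 3 rose. Erythroid markers summed to 4413 to 4479 CPM in WT and to 2695 to 2700 CPM in dKO, and 7 of the 8 tested fell. Mesenchyme and somite markers went from 491 to 521 CPM in WT to 440 to 441 CPM in dKO, with 3 of 10 tested lower. The erythroid gene Hba-a1 was at 0 in every total RNA library. In polysomal RNA, where 52.5% of all genes tested were called lower and 47.2% higher, 6 of 8 listed neural progenitor markers were higher and 2 lower, 5 of 6 neuronal markers were lower, all 5 erythroid markers were lower, and 5 of 7 mesenchyme and somite markers were higher and 2 lower. The part of these cells in the values of the 5 genes was not tested. In bulk tissue, fewer cells of a type and less RNA per cell cannot be told apart.

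The first comparison asked how the transcripts differed between dKO and WT in total RNA. Hmga2, Arid3b and Arid3a were lower in dKO, Hmga1 was not called, and Arid3c is described apart. Of 14594 genes tested, 30.7% were called, 16% lower and 14.7% higher, at an adjusted p of 0.05 (edgeR quasi-likelihood test, Benjamini-Hochberg), and the median log2 fold change was 0.00. All 5 members passed the filter on low counts, but Arid3c did so through its WT libraries alone and is not counted here. Of the other 4 members, 3 were called lower, beside 16% of all genes.

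Hmga2, the architectural protein of young neural stem cells, was read 4467 and 4498 times in the WT libraries against 1469 and 1509 times in the dKO libraries, or 285 and 298 against 93.5 and 97.2 CPM. The replicates lay close together and the genotypes far apart. Hmga2 fell 3.05-fold (log2 fold change -1.61 ± 0.05; adjusted p = 1.50e-238, edgeR), and it ranked 45 of 14594 from the most negative change. Its locus is chr10:120361275-120476469 (GRCm38, minus strand), and the antisense gene 1700006J14Rik shares some of its exon bases. The processed pseudogene Hmga2-ps1 went from 295 and 250 counts to 100 and 107. Of the 50-base stretches of the longest Hmga2 transcript, 0.877% also occurred in the pseudogene that GENCODE annotates at the RefSeq place of Hmga2-ps1, on chromosome 1. With the counts of gene and pseudogene summed, an alternative added after the data were seen, the log2 fold change was -1.60.

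Arid3b, the ARID3 protein needed in early embryos, had WT counts of 789 and 811 and dKO counts of 312 and 269 (50.3 and 53.7 against 19.9 and 17.3 CPM). It fell 2.79-fold (log2 fold change -1.48 ± 0.11; adjusted p = 6.38e-40, edgeR). It is at chr9:57790353-57836793 (minus strand) and shares exon bases with the antisense gene Gm17231. Arid3a, the B cell factor Bright, had WT counts of 879 and 839 and dKO counts of 521 and 491, or 56.0 and 55.5 against 33.2 and 31.6 CPM. The fall of Arid3a was smaller than that of Arid3b, at 1.72-fold (log2 fold change -0.78 ± 0.10, adjusted p = 8.78e-15, edgeR). Arid3a, at chr10:79927043-79955018 (plus strand), overlaps no annotated gene. No 50-base stretch of the longest transcript of Arid3a, Arid3b or Arid3c occurred in a transcript of another gene.

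Arid3c, the least abundant of the ARID3 genes, was counted 20 and 25 times in WT and 1 time in each dKO library. These are few reads, and in dKO the gene was at the edge of detection. The 45 WT against 2 dKO counts give a WT to dKO ratio of 22.8 with a 95% interval from 5.96 to 194 (exact binomial, counting error only). The fitted log2 fold change of -4.35 ± 0.95 (adjusted p = 4.65e-05, edgeR) leans on the prior count and is no bound. Because the gene passed the filter through its WT libraries alone, only a fall could be called, and the p-value adds no evidence. Arid3c, at chr4:41723836-41731142 (minus strand), overlaps Il11ra1 on the opposite strand, without shared exon bases.

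Hmga1, the paralog of Hmga2, had WT counts of 114 and 98 and dKO counts of 102 and 133, or 7.26 and 6.48 against 6.49 and 8.57 CPM. The genotypes overlapped, and the log2 fold change was 0.13 ± 0.22 (adjusted p = 0.715, edgeR). The value was -0.08 without dKO replicate 2. It is at chr17:27556497-27563674 (plus strand), and AI413582 and Gm49774 on the opposite strand share some of its exon bases. Its counts are uncertain: 69.1% of the 50-base stretches of its longest transcript also occur in transcripts of another gene, and the sources used here do not say how reads with several places were counted.

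**Figure D2:**
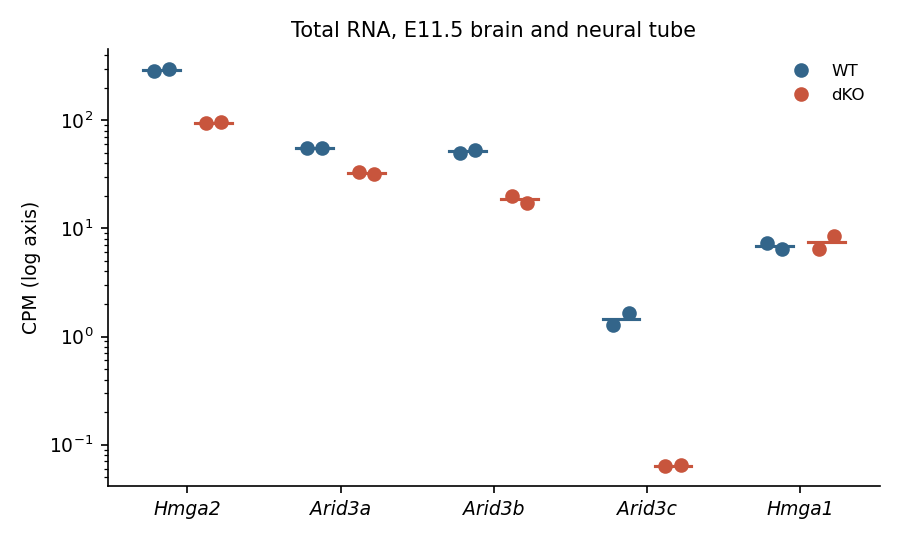
Level of each gene in the 4 total RNA libraries (points, CPM on a log axis; lines are the mean of 2 libraries). WT and dKO libraries are apart for Hmga2, Arid3a, Arid3b and Arid3c and overlap for Hmga1. Arid3c has 1 count in each dKO library. The share of all genes whose libraries lie apart in this way is not given, so the gaps only describe the points.

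Levels were set side by side per length (CPM per kilobase of annotated exon). In WT total RNA the order was Hmga2 (43.0 ± 1.37, SD, n = 2), Arid3a (10.02 ± 0.0593), Arid3b (6.51 ± 0.303), Hmga1 (3.23 ± 0.258) and Arid3c (0.826 ± 0.152). No libraries of neighbours in that order overlapped. In dKO the levels were 14.1 ± 0.391 for Hmga2, 5.82 ± 0.193 for Arid3a, 3.54 ± 0.692 for Hmga1, 2.33 ± 0.224 for Arid3b and 0.0361 ± 0.000318 for Arid3c. On these lengths Arid3b was above Hmga1 in WT and below it in dKO, with the limit on Hmga1 counts given above. The stretches that Hmga1 shares with another gene (69.1%) stayed in its length, so its place in both orders is uncertain. The lengths join the exons of all annotated isoforms. For Arid3b that is 7976 bases, while its longest coding transcript has 4171. For Hmga1 it is 2125, while its longest has 2001. The order of genes depends on these lengths and may differ with the isoform in use. Hmga2 remained the highest of the 5 genes in dKO, at a level above that of Arid3a in WT.

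The second comparison concerned polysomal RNA, for the 3 genes listed there. Arid3a and Arid3c have no row in that table and are not analysed there. The table appears picked for a difference between genotypes: of the 5441 rows that averaged 100 counts or more, 2927 had a log2 ratio of summed counts (dKO over WT) of -2.04 or less, 2514 had -1.71 or more, and no row fell between. The summed counts of Hmga2 (-4.39) and Arid3b (-3.46) were on the low side of that empty interval and those of Hmga1 (-0.46) on the high side. Of 5777 genes tested, 99.7% were called, 52.5% lower and 47.2% higher, with a median log2 fold change of -0.35. A call among these genes is therefore given as a value, and its being called says nothing about the members. Under other scalings the median of all genes moved to between -0.51 and -0.10. The dKO polysomal replicates lay further apart than any other pair (chi-square per degree of freedom 24.8, against 2.88 to 3.19).

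Hmga2 and Arid3b were lower in dKO polysomal RNA and Hmga1 was higher. Hmga2 had WT counts of 7187 and 7535 and dKO counts of 273 and 429, or 457 and 462 against 80.3 and 84.5 CPM. It fell 5.57-fold (log2 fold change -2.48 ± 0.07; adjusted p = 8.60e-05, edgeR), and the alternatives ranged from -2.63 to -1.86. Arid3b had WT counts of 1259 and 1233 and dKO counts of 87 and 139, or 80.0 and 75.7 against 25.6 and 27.4 CPM. Its log2 fold change was -1.55 ± 0.13 (adjusted p = 1.92e-04, edgeR), with alternatives from -2.20 to -1.32. Both genes were lower than WT in each dKO library, by more than the distance between replicates. The table appears picked for genotype differences, with 99.7% of the genes tested called. A gap of this kind thus says nothing particular about any listed gene, Hmga1 included.

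Hmga1 had polysomal counts of 124 and 170 in WT against 116 and 97 in dKO, which after scaling were 7.88 and 10.4 against 34.1 and 19.1 CPM. The dKO libraries differed from each other by more than the WT libraries did, and both lay above them. The log2 fold change was 1.51 ± 0.34 (adjusted p = 5.08e-03, edgeR). After an adjustment for the GC content of transcripts it was 0.34 (adjusted p = 0.381). The longest Hmga1 transcript has 61.4% GC, that of Arid3b 54.6% and that of Hmga2 45.7%, where the polysomal genes tested had a median of 49.1%.

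**Figure D3:**
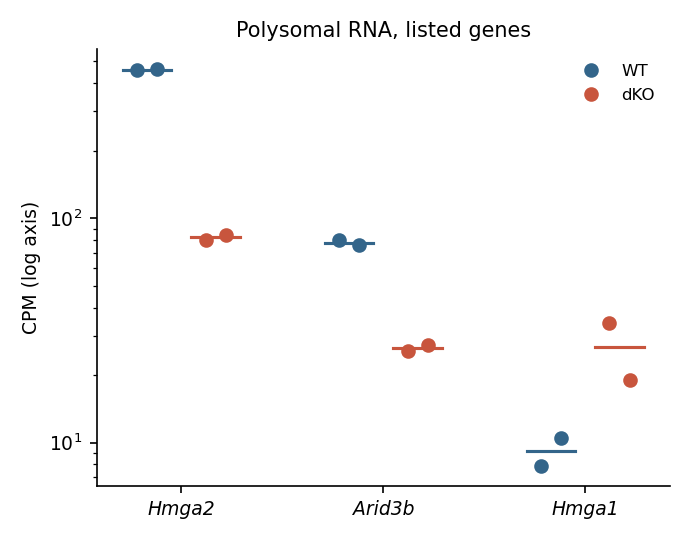
Level of the 3 listed genes in the 4 polysomal libraries (points, CPM on a log axis over the listed genes only; lines are the mean of 2 libraries). Hmga2 and Arid3b are lower in both dKO libraries, and Hmga1 is higher, with more distance between its dKO libraries.

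Per length, Hmga2 stood at 67.9 ± 0.596 CPM per kilobase in WT polysomal RNA, Arid3b at 9.76 ± 0.384 and Hmga1 at 4.31 ± 0.849. In dKO, Hmga2 was at 12.2 ± 0.436, Hmga1 at 12.5 ± 4.997 and Arid3b at 3.32 ± 0.158. On these exon lengths, Hmga2 and Hmga1 did not differ beyond their spread there. The limit on the counts and length of Hmga1 given for total RNA holds here too.

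The third comparison set the fractions against each other on the 5802 genes in both tables. In WT, none of the 3 genes differed between polysomal and total RNA at the threshold: the log2 difference was 0.08 ± 0.05 for Hmga2 (adjusted p = 0.381), 0.01 ± 0.10 for Arid3b (adjusted p = 0.978) and -0.16 ± 0.28 for Hmga1 (adjusted p = 0.778), all by edgeR. In that contrast 12% of 5780 genes were called, 8.51% lower and 3.48% higher. In dKO, where 90% were called (46.9% lower and 43.1% higher), Hmga2 was lower in polysomal than in total RNA by -0.75 ± 0.07 (adjusted p = 2.53e-06, edgeR) and Hmga1 was higher by 1.25 ± 0.29 (adjusted p = 2.07e-03, edgeR). Arid3b was at -0.02 ± 0.13 (adjusted p = 0.876, edgeR). With a GC adjustment the calls on Hmga2 (-0.11, adjusted p = 0.149) and Hmga1 (0.0570, adjusted p = 0.865) were lost, and Arid3b was called at -0.70 (adjusted p = 9.48e-04, edgeR).

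The difference of the genotype effects was then tested directly, as the change in polysomal RNA less the change in total RNA. It was -0.83 ± 0.09 for Hmga2 (adjusted p = 1.35e-05, edgeR), 1.41 ± 0.41 for Hmga1 (adjusted p = 7.71e-03) and -0.03 ± 0.17 for Arid3b (adjusted p = 0.872). Of 5780 genes, 89.5% were called in this test (45.8% lower and 43.7% higher), and their median was -0.13. Before any GC adjustment Hmga2 fell further in polysomal than in total RNA, while no difference was called for Arid3b. Hmga2 ranked 1502 of 5780 from the most negative value. With so many genes called, a call in this test says little about a member. With transcript GC content adjusted for within each fraction, which was added after the data were seen, these values were -0.20 for Hmga2 (adjusted p = 0.0680), 0.22 for Hmga1 (adjusted p = 0.660) and -0.70 for Arid3b (adjusted p = 6.02e-03), all by edgeR. The calls on all 3 genes thus changed with that adjustment. Each comparison shares libraries with the others, so their values are set side by side and not counted as separate evidence.

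**Figure D4:**
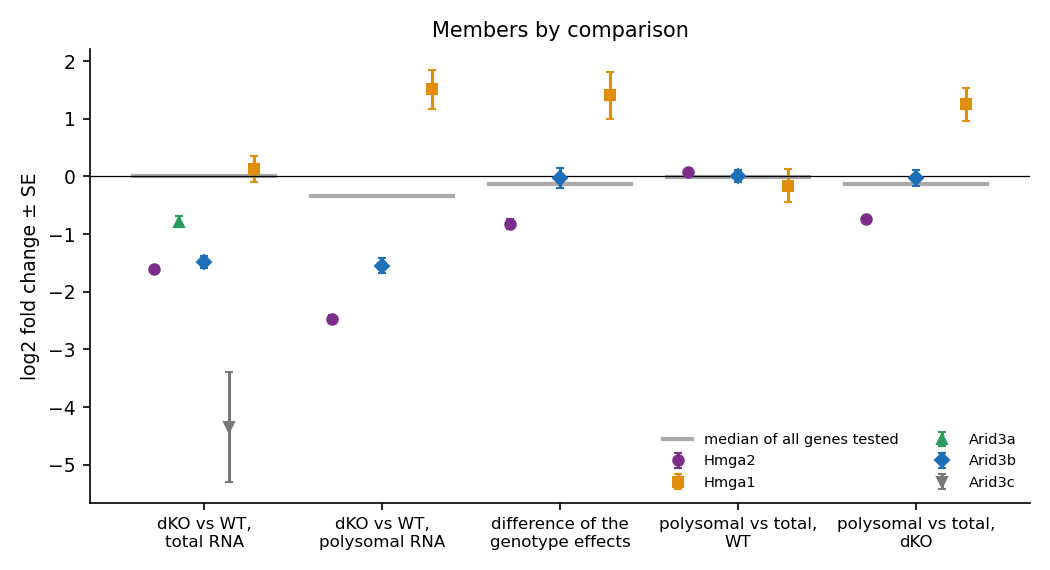
Log2 fold change (points; bars are ± SE) of each gene in 5 comparisons, with the median of all genes tested as a grey line. Hmga2 is at -1.61 in total and -2.48 in polysomal RNA, Arid3b is at -1.48 and -1.55, and Hmga1 is at 0.13 and 1.51, before any GC adjustment.

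Because the members differ in let-7 matches, the fold changes of all genes were described by number of matches in the 3′ UTR. Over UTRs of at least 2000 bases in total RNA, 12.5% of 2808 genes without a match were called lower and 23.9% higher, with a median of 0.07. With 1 match the shares were 12.8% and 21.2% of 1057 genes, and with 2 they were 18.8% and 14.3% of 272. With 3 or more, 33.3% of 87 genes were lower and 14.9% higher, with a median of -0.12 and quartiles of -0.45 and 0.12. The lower share was thus largest where matches were most frequent. Hmga2 (-1.61), Arid3b (-1.48) and Arid3a (-0.78), which are counted in this last group, lay below its lower quartile. Arid3b and Arid3a reach 3 matches only with the 7mer-A1 kind, which was added after values were seen. Without the members and Lin28b, 30.1% of the 83 genes left in that group were lower and 15.7% higher, with a median of -0.09. In polysomal RNA, 64.9% of 1286 listed genes without a match and 76.9% of 52 with 3 or more were lower, with medians of -0.57 and -0.74. Without the members and Lin28b, 75.5% of 49 were lower.

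**Figure D5:**
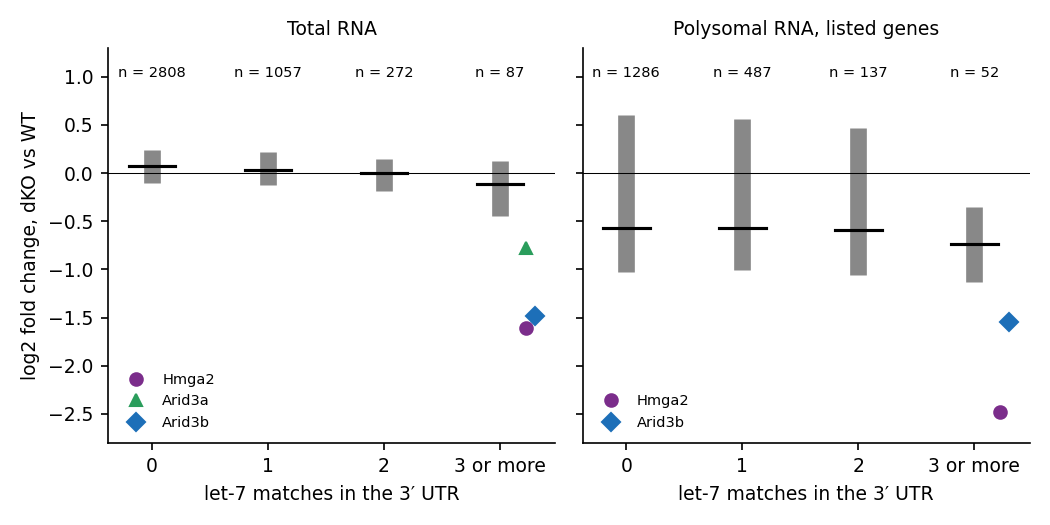
Log2 fold change of dKO against WT by number of let-7 matches, for genes with a 3′ UTR of at least 2000 bases (bars from lower to upper quartile, black line at the median, n above). Hmga2, Arid3a and Arid3b are drawn beside the group with 3 or more matches and lie below its lower quartile in total RNA.

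Apart from the members and Lin28b, which itself has 5 matches, 26 tested genes had 4 or more. Of these, 13 fell, 3 rose and 10 were not called in total RNA, with a median of -0.32. Examples were chosen after their values were seen. Igf2bp1, an RNA-binding protein gene with 5 matches, was at -1.03 ± 0.04, Trim71, a ubiquitin ligase gene with 6, at -1.03 ± 0.13, and the nuclear receptor gene Nr6a1 with 8 at -1.004 ± 0.12. The zinc finger genes Zfp652 with 5 (0.31 ± 0.07) and Zbtb37 with 4 (0.32 ± 0.10) rose, as did D1Ertd622e with 5 (0.19 ± 0.06). The annotated UTRs of these genes were longer, with 8294 bases for Zfp652, 16999 for Zbtb37 and 39397 for D1Ertd622e. Those of the named falls had 6337 for Igf2bp1, 5512 for Trim71 and 4457 for Nr6a1. Whether UTR length plays a part in these changes was not tested. Mcf2l, a guanine nucleotide exchange factor gene with 7 matches in 2728 bases, was at 0.11 ± 0.07 and not called.

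The list of other let-7 targets holds Lin28a and Lin28b, the targeted genes, which were set aside. Of the 44 others tested, 28 fell and 3 rose in total RNA, with a median log2 fold change of -0.34, beside 16% and 14.7% of all genes. The largest falls were those of Igdcc3 (-2.08 ± 0.05), an immunoglobulin superfamily membrane protein, and of Fignl2 (-1.89 ± 0.09), a fidgetin-like ATPase. Among those that rose were Plagl1 (0.28 ± 0.03) and the deubiquitinase gene Yod1 (0.38 ± 0.08), which were lower in polysomal RNA (-0.78 ± 0.09 and -0.90 ± 0.18). In polysomal RNA 27 of the 31 targets tested were lower and 3 higher, with a median of -0.90, beside 52.5% lower and a median of -0.35 for all genes tested there. Hmga2 at -2.48 and Arid3b at -1.55 lay below that median.

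The wider families were counted in the same way, beside 16% lower and 14.7% higher of all genes in total RNA, and 52.5% and 47.2% in polysomal RNA. Of 19 tested HMG genes outside the HMGA pair, 5 fell and 3 rose in total RNA, with a median of -0.12. In polysomal RNA 10 of 12 were lower and 2 higher, with a median of -0.85. In total RNA the FACT histone chaperone subunit gene Ssrp1 changed by -0.47 ± 0.05, the RNA polymerase I factor gene Ubtf by -0.41 ± 0.07 and Hmgb1 by -0.29 ± 0.09. Tox (0.23 ± 0.09), Tox3 (0.19 ± 0.05) and Hmgn1 (0.09 ± 0.03) rose. Polysomal values of Ubtf (0.53 ± 0.09), Tox (-0.96 ± 0.14) and Tox3 (-0.35 ± 0.08) had the opposite sign. Of 12 ARID genes outside the ARID3 group, 3 fell and 1 rose in total RNA, with a median of -0.03, and 3 of the 4 in the polysomal table were lower and 1 higher, with a median of -0.53. The histone demethylase genes Kdm5c (-0.33 ± 0.05) and Kdm5b (-0.33 ± 0.06) and Jarid2 (-0.20 ± 0.07), a cofactor of Polycomb complexes, fell in total RNA. Kdm5c was higher in polysomal RNA (0.34 ± 0.07). Kdm5d, which is Y-linked, rose by 0.42 ± 0.12, and the labels do not give the sex of the embryos. The part of sex in the Kdm5c and Kdm5d values was not tested. The total RNA changes of the HMG and ARID genes named here were smaller than that of Arid3a.

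Partners and reported downstream genes of the members were mixed: of 25 tested, 7 fell and 3 rose in total RNA, with a median of -0.03, and of 17 tested in polysomal RNA 9 were lower and 8 higher, with a median of -0.36. Igf2bp2, an RNA-binding protein gene reported to be activated by Hmga2 and itself a let-7 target, fell by 0.98 on the log2 scale (SE 0.05), from 247 to 125 CPM. Snai1 (-0.70 ± 0.25) and Twist1 (-0.52 ± 0.13), transcription factors of mesenchyme, also fell in total RNA. Twist1 is on the mesenchyme marker list too, and was higher in polysomal RNA (1.15 ± 0.15). Cdkn1a, an inhibitor of the cell cycle, rose (0.58 ± 0.13), as did Tfdp1 (0.31 ± 0.05) and E2f1 (0.26 ± 0.05), which form a dimer that drives S phase genes. In polysomal RNA Cdkn1a (1.21 ± 0.17) and E2f1 (1.303 ± 0.11) were higher and Tfdp1 was lower (-0.55 ± 0.09). Cdkn2a, the Ink4a/Arf locus that Hmga2 is known to hold down in neural stem cells, had 0 counts in WT and 1 in dKO and was not tested. Its neighbour Cdkn2b had 13 and 34 counts, a log2 fold change of 1.34 ± 0.71 (adjusted p = 0.143, edgeR).

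Genes with the most similar profile were sought by Euclidean distance between log2 CPM profiles centred on WT total RNA, over 8 libraries for the listed members and 4 total RNA libraries for the others. For Hmga2 they were Lin28b (distance 0.855), the transcription factor gene Onecut2 (0.926) and the neurofilament gene Nefm (0.976). For Arid3b they were Lrtm1 (0.413), the MAP kinase phosphatase gene Dusp9 (0.654) and Hmga2-ps1 (0.729). For Hmga1 they were Tmem74b (0.353), Wdr91 (0.456) and Zfp786 (0.462). For Arid3a they were Hic2 (0.0192), the helicase gene Ddx27 (0.0360) and Rcc2 (0.0535), and for Arid3c they were Lin28a (0.517), Wfdc1 (1.06) and Onecut3 (1.17). Distances over 4 and over 8 libraries are not on 1 scale. Those of Arid3c lean on the prior count of 2, because the gene had 1 count in each dKO library.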

How the data were processed

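Both tables hold raw read counts by gene symbol, as the authors deposited them. The submitters' processing notes name FastQC, TopHat and HTSeq, and list GRCm38, mm10 and mm9 as builds, with no roles. Libraries were strand-specific, per the labels' protocols. The sources used here do not give the strand setting of the counting. Each genotype comparison was fitted on the whole table of its fraction (edgeR 4.0.16 in R 4.3.3, TMM, filterByExpr, quasi-likelihood F test, Benjamini-Hochberg, threshold 0.05), and comparisons of fractions on all 8 libraries with 4 group means. The edgeR script was tested on simulated data. Standard errors are the absolute log2 fold change over the square root of F. DESeq2 1.42.0 was an alternative.

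Exon lengths, GC content (longest transcript) and 3′ UTRs came from GENCODE M21. GC values matched 95.6% of total and 96.5% of polysomal rows. Symbols on more than 1 row of the total RNA table were left out of the joint fit.

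The members, lists and alternatives were chosen with earlier results of these data known. The named-gene rule took all 5 members, up to 3 largest falls and 3 largest rises called in each list, and the 3 most similar profiles among genes averaging 5 CPM or more (log2 CPM with a prior count of 2), without predicted genes. Some items that the rule would name are not reported here. The 7mer-A1 kind of match was added after values were seen, as were the counts without Lin28a and Lin28b.

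No replicate pair was so close that it could be 1 library deposited under 2 numbers (chi-square per degree of freedom from 2.88 to 24.8). The value of 24.8 was that of the dKO polysomal pair, and the other groups were at 2.88 to 3.19.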

Additional observations from a re-analysis of the deposited data

Results flagged for a closer look

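Hmga2 and Hmga1 were picked out because their genotype effect differed between the fractions by the test of the difference itself. For Hmga2 the change in polysomal RNA less that in total RNA was -0.83 ± 0.09 on the log2 scale (adjusted p = 1.35e-05, edgeR), the fall being larger in polysomal RNA. For Hmga1 it was 1.41 ± 0.41 (adjusted p = 7.71e-03, edgeR), with a rise in polysomal RNA and no call in total RNA. The test called 89.5% of 5780 genes, and neither call held after the GC adjustment.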

How the results depend on the processing

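Of 227 values of the members under alternatives, 206 kept their direction and their side of the threshold. The falls of Hmga2, Arid3a and Arid3b in total RNA kept both in every alternative that gave a value. For Arid3c, which passed the filter through its WT libraries alone, the log2 fold change ranged from -4.53 to -4.16. These refits use the same few reads, so their likeness adds no evidence. DESeq2 gave no value for Arid3c. In 1 fit of all 8 libraries, 1286 of 5780 genes were called in total RNA (22.2%), against 4485 of 14594. Of the 5739 of those 5780 genes that were tested in the total RNA fit, 2423 (42.2%) were called there. The GC adjustment left 2823 calls in polysomal RNA against 5760, 2614 in the difference of genotype effects against 5171 and 3398 in the dKO fractions against 5202. It took the polysomal Hmga1 value to 0.34, the differences of effects to -0.20 (Hmga2), 0.22 (Hmga1) and -0.70 (Arid3b), and the dKO fraction values to -0.11 (Hmga2), 0.0570 (Hmga1) and -0.70 (Arid3b). All calls on Hmga1 and Hmga2 among these were lost, and those on Arid3b gained. The cause was not tested. Values near 0 changed sign. Arid3b was at 0.10 (RLE) and 0.0945 (DESeq2) in the difference of effects, and at 0.12 with each in the dKO fractions. With 1 library left out it ranged from -0.130 to 0.0713 in the difference of effects, from -0.124 to 0.0776 in the dKO fractions and from -0.0419 to 0.0558 in the WT fractions. Hmga1 then ranged from -0.0833 to 0.316 in total RNA and from -0.377 to 0.0221 in the WT fractions, and the calls in the WT fractions from 179 (without WT polysomal replicate 1) to 1998 (without dKO polysomal replicate 2), against 693. With column sums as library sizes, the WT fractions had 273 higher and 311 lower calls against 201 and 492. Replicate numbers did not pair the samples (correlations of deviations -0.04 in total and 0.06 in polysomal RNA). With the replicate block 4369 genes were called in total RNA and 5771 in polysomal RNA, and no call on a member changed.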
